A study of Mus musculus with 22 samples.

Results

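The enzymes of central carbon metabolism Ldha, Pkm, Pgk1, Pgam2 and Tkt, were followed in mouse embryos, in RNA of the anterior neural tube, around the time of its closure. Every array probe annotated to one of these symbols was taken, which gave 5 probes, 1 for each gene, of 10500 probes in all, or 5 of the 9230 genes that a probe named alone. All 5 passed the filter on dim probes, together with a total of 7833 probes that were tested. Each value therefore rests on a single probe.

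All 22 arrays came from Folr2-/- embryos, which lack a folate receptor gene that the labels also call Folbp2, so control and treated samples share this deletion and no wild-type sample was analysed here. Pregnant dams were injected intraperitoneally on gestational day (GD) 7:12 and GD8:12, with sodium arsenate at 9.6 mg As per kg of body weight or with water. Anterior neural tubes were taken 3 h after the second injection (GD8:15; 4 control and 4 arsenic arrays), 12 h after it (GD9:00; 4 control and 3 arsenic) and 24 h after it (GD9:12; 3 control and 4 arsenic). RNA from each sample was amplified before it was hybridised to a 1-colour CodeLink UniSet 10K array. The labels do not tie arrays to dams, so p-values measure only the spread between these samples.

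Glycolysis splits glucose into pyruvate and yields ATP without oxygen. Pgk1 (phosphoglycerate kinase) makes ATP in its lower part, phosphoglycerate mutases then move the phosphate group, with Pgam2 as the muscle form, and Pkm (pyruvate kinase of muscle and most other tissues) makes ATP and pyruvate. Ldha (lactate dehydrogenase A) turns pyruvate into lactate and so renews the cofactor that glycolysis consumes. Tkt (transketolase) belongs to the pentose phosphate pathway, a branch that supplies ribose for nucleotides and reducing power, and it passes carbon back to glycolysis. Embryos of this age rely heavily on glycolysis, and several glycolytic genes are textbook targets of the hypoxia-inducible factor HIF-1, which binds a short core, ACGTG, in promoters.

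The sequences before the annotated starts of the 5 genes are shown because their matches to this core differ. They also differ between the starts of Ldha and between those of Pkm. The 250 bases before each start were read from RefSeq on the GRCm38.p6 build, where all 5 symbols matched and gave 7 starts, as Ldha and Pkm each have more than 1. Letters in capitals mark ACGTG on either strand. Each CACGTG, an E-box that reads the same on both strands, holds an overlapping pair of such matches.

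Ldha, first start (chr7:46845554-46845803, plus strand): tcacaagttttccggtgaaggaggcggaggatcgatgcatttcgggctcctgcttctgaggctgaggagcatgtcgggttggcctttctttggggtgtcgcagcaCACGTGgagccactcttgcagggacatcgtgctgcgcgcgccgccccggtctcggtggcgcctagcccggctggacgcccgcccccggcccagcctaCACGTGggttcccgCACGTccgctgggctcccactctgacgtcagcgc
Pgk1 (chrX:106186850-106187099, plus strand): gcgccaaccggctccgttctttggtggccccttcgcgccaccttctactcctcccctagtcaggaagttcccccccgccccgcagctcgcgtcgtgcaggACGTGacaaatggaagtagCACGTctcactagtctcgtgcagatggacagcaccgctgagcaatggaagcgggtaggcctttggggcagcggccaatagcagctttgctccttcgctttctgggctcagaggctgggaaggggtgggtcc
Pkm, second start (chr9:59656977-59657226, plus strand): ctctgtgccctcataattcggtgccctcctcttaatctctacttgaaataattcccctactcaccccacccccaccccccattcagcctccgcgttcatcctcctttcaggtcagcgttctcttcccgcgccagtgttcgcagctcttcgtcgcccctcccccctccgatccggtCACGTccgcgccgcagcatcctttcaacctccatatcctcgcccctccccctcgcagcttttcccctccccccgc
Pgam2 (chr11:5803797-5804046, minus strand): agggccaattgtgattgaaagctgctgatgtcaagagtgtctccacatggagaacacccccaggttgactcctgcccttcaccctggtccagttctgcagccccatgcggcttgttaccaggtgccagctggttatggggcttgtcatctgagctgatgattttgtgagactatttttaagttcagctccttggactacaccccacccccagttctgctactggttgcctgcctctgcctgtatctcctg
Tkt (chr14:30548881-30549130, plus strand): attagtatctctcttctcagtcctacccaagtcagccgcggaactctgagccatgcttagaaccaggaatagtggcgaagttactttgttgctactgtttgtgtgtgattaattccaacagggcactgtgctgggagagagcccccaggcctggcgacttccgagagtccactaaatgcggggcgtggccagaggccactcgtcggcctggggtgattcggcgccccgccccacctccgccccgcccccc

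The Ldha promoter held 5 matches to ACGTG, counted on both strands, of which 4 lie in its 2 E-boxes. Pgk1 held 2 matches and Pkm 1, and the windows of Pgam2 and Tkt, the second Ldha start and the first Pkm start held none. Of all 32851 promoters in the table, 16.6% held ACGTG in the same 250 bases and 6.0% held CACGTG. Tkt instead carried 3 matches to the Sp1 box GGGCGG within 25 bases of its start, a box found in 32.7% of promoters. The first Pkm start and Pgk1 held 1 match each to this box, and the first Ldha start held 2. None of the 7 windows held TATAAA, the antioxidant response core TGACNNNGC or the ATF4 element TGATGNAA, which stood in 12.4%, 10.2% and 3.5% of promoters. These matches describe letters only, and no factor binding was measured here.

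Across the whole series, the mean correlation of an array with the others of its group ran from 0.889 to 0.973. The probe for Folr2, the deleted gene, lay at 0.591 to 0.957 times the median of its array on all 22 arrays. Heart and muscle markers were present in these dissections: Actc1, the cardiac actin, stood at 13.04 to 13.77 (log2) on the 4 control arrays of GD8:15. Where a gene had 2 tested probes (92 genes), these correlated over the 22 arrays with a median r of 0.0489, so each value below belongs to its probe before it belongs to its gene. All levels are quantile-normalised log2 intensities, and probes are not compared with each other in level, since each binds its target differently.

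Stage differences passed the threshold for 4 of the 5 genes, and arsenate differences for none of them. Ldha and Tkt fell between GD9:00 and GD9:12 in both arms. Pkm rose from a signal near the array median at GD8:15 to a strong signal at GD9:00 and stayed above its first level at GD9:12, in both arms. Pgam2 fell after GD8:15 in the control arm, and Pgk1 did not pass the threshold in any comparison. With the first part of the array titles' code as a block, the rise of Pkm in controls was the 1 difference from GD8:15 that still passed, and no call of Pgam2 did. In that fit every difference from GD8:15 rested on 1 array, control replicate 3, the only one of that stage whose code began like later ones. A difference passed where limma's p, adjusted over all 7833 probes by Benjamini-Hochberg, was under 0.05.

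**Figure D1:**
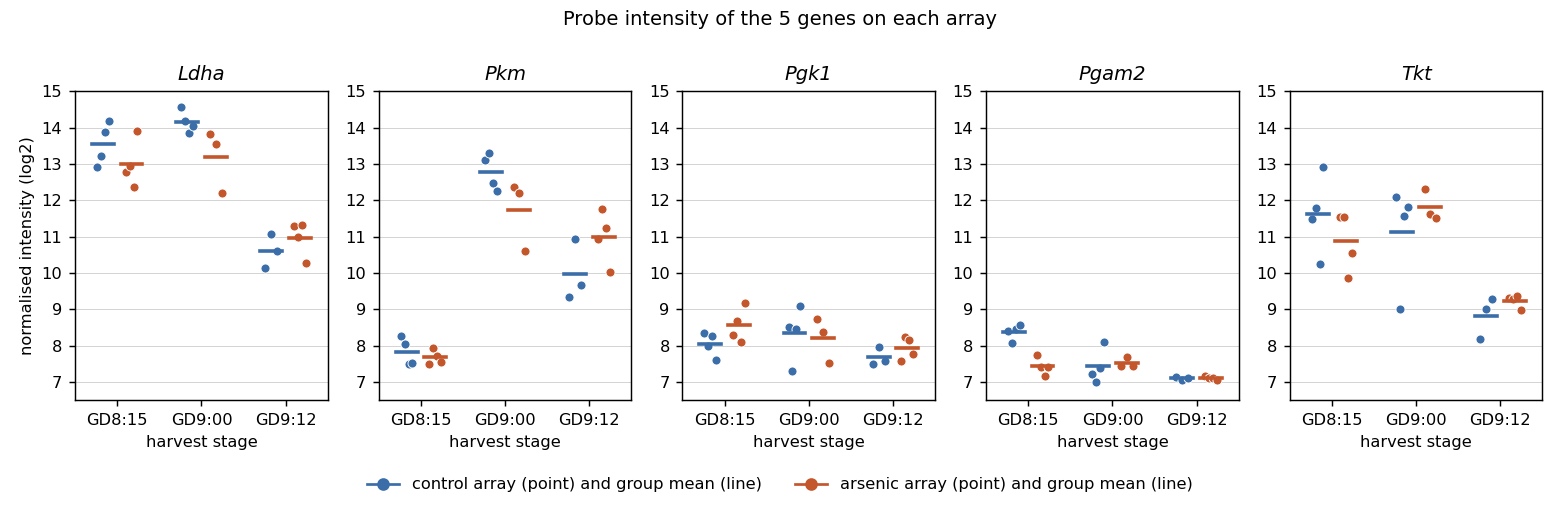
Normalised intensity (log2) of the 5 probes on each of the 22 arrays by harvest stage; points are arrays, lines are group means, and control and arsenic arrays are coloured. Pkm stands at 7.50 to 8.26 on all 8 arrays of GD8:15 and at 9.34 or above on every later array, while Ldha lies at or below 11.32 on the 7 arrays of GD9:12.

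Pgk1 gave a dim signal, between 0.837 and 2.97 times the array median. Control arrays read 8.34, 8.00, 8.26 and 7.61 at GD8:15, then 8.51, 7.31, 8.47 and 9.08 at GD9:00, and 7.51, 7.95 and 7.59 at GD9:12. Arsenic arrays read 8.29, 8.69, 8.10 and 9.17 at GD8:15, then 8.75, 8.38 and 7.52 at GD9:00, and 7.58, 8.25, 8.17 and 7.78 at GD9:12. The groups overlapped at every stage, and the lowest reading, 7.31, came from control replicate 2 of GD9:00. The largest stage difference of this kinase was a control value at GD9:12 lower by 0.66 than at GD9:00, with a 95% interval from -1.41 to 0.0868 and an adjusted p of 0.249 (limma). It passed the threshold with weighted arrays, at -0.79 (adjusted p = 0.0263), and with stretches of low signal left out, at -0.995 (adjusted p = 0.0466), which removes the reading of control replicate 2 of GD9:00. With the authors' scaling kept it was 0.08.

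Pgam2 was also dim, and among the genes followed here only its arms stood apart at the first stage. How many of all tested probes stood apart in this way was not counted, so how unusual this is cannot be judged. The 4 control arrays of GD8:15 read 8.41, 8.09, 8.46 and 8.58, and the 4 arsenic arrays 7.76, 7.42, 7.16 and 7.42. No arsenic array reached the lowest control array. At GD9:00 the controls read 7.24, 7.01, 7.38 and 8.10 and the arsenic arrays 7.46, 7.69 and 7.44, and at GD9:12 all 7 arrays lay between 7.05 and 7.16. By then the probe sat at 0.641 to 0.763 times the array median, inside the range of the probe for the deleted Folr2, where differences are compressed. Folds against such levels are estimates from the measured values, which this compression can make too small.

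In control embryos Pgam2 fell by 0.95 ± 0.18 (log2, SE) from GD8:15 to GD9:00, 1.94-fold as measured (adjusted p = 0.00203, limma). However, 1 control array of GD9:00 overlapped the earlier group. From GD8:15 to GD9:12 Pgam2 fell by 1.28 ± 0.19, 2.43-fold as measured (adjusted p = 0.000669, limma), with no overlap. With the title code as a block, both differences rested on 1 array of GD8:15. In the arsenic arm, which began lower, the corresponding differences were 0.09 ± 0.19 and -0.33 ± 0.18 and did not pass the threshold (adjusted p = 0.852 and 0.217).

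Pkm changed most. Control arrays read 8.26, 8.04, 7.50 and 7.53 at GD8:15, and arsenic arrays 7.50, 7.95, 7.71 and 7.57, which is 0.984 to 1.55 times the array median and so close to the signal of a probe with little target. At GD9:00 the controls read 13.11, 13.30, 12.48 and 12.27, and the arsenic arrays 12.38, 12.19 and 10.61. At GD9:12 the controls read 9.34, 10.94 and 9.66, and the arsenic arrays 10.93, 11.76, 11.23 and 10.04. Every array of GD9:00 and GD9:12 lay above every array of GD8:15.

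The rise of Pkm from GD8:15 to GD9:00 was 4.96 ± 0.41 in control embryos, 31.1-fold as measured (adjusted p = 6.95e-07, limma). In arsenic embryos it was 4.04 ± 0.45, 16.5-fold as measured (adjusted p = 3.04e-05, limma). The probe was near background at GD8:15, which can make both folds too small. By GD9:12 the control level fell by 2.81 ± 0.45 (adjusted p = 0.000783), and the arsenic difference of -0.74 ± 0.45 did not pass (adjusted p = 0.466). At GD9:12 Pkm was still above its GD8:15 level, by 2.15 ± 0.45 in controls (adjusted p = 0.00595) and by 3.31 ± 0.41 in arsenic embryos (adjusted p = 9.51e-05). Without control replicate 2 of GD9:12 the control rise was 1.67 (adjusted p = 0.0531).

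A jump of this size was rare on the array. Averaged over both arms, only 2 of the 10500 probes differed by more than 3.5 (log2) between GD8:15 and GD9:00, Pkm with 4.58 and a probe without a gene symbol (number 7207) with 4.60; the latter was picked after its values were seen. That probe read 7.295 to 7.534 at GD8:15, 11.51 to 12.84 at GD9:00 and 9.225 to 11.03 at GD9:12, the same order of stages as Pkm. The labels carry a code in each title. Control replicate 3 of GD8:15, whose code begins like those of all 7 arrays of GD9:00, read 7.50 for Pkm. Control replicates 1, 2 and 4 of GD8:15, whose codes begin otherwise, read 8.26, 8.04 and 7.53. Replicate 3 is a single array, and any part of the codes in the jump was not tested.

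Ldha was strong at the first 2 stages. Control arrays read 12.91, 13.21, 13.89 and 14.17 at GD8:15, then 14.56, 14.19, 13.84 and 14.05 at GD9:00, and 10.13, 11.07 and 10.60 at GD9:12. Arsenic arrays read 12.78, 12.95, 12.38 and 13.91, then 13.81, 13.56 and 12.21, and finally 11.28, 10.99, 11.32 and 10.26. In each arm the GD9:12 arrays lay below all earlier arrays. Between GD9:00 and GD9:12 it fell by 3.56 ± 0.41 in controls, 11.8-fold (adjusted p = 7.66e-05, limma). In arsenic embryos it fell by 2.23 ± 0.41, 4.69-fold (adjusted p = 0.00522). Against GD8:15, Ldha was lower at GD9:12 by 2.94 ± 0.41 in controls (adjusted p = 0.000431) and by 2.04 ± 0.38 in arsenic embryos (adjusted p = 0.00194). With the authors' scaling kept, the arsenic falls shrank to -0.84 and -0.91 and did not pass (adjusted p = 0.181 and 0.135), and with median centring they were -1.10 and -0.91 (adjusted p = 0.216 and 0.225).

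Tkt had the largest spread of the 5 when pooled over the groups, although Pkm spread more in 3 of the 6 groups. Control arrays read 11.48, 11.80, 10.25 and 12.92 at GD8:15, then 12.08, 9.01, 11.57 and 11.81 at GD9:00, and 8.20, 9.01 and 9.28 at GD9:12. Arsenic arrays read 11.54, 11.53, 9.86 and 10.55, then 12.31, 11.63 and 11.52, and finally 9.33, 9.30, 9.36 and 8.99. The GD9:12 arrays were the lowest of each arm, except that control replicate 2 of GD9:00, at 9.01, fell among them. From GD9:00 to GD9:12, Tkt fell by 2.29 ± 0.64 in controls, 4.89-fold (adjusted p = 0.0272, limma), and by 2.58 ± 0.64 in arsenic embryos, 5.97-fold (adjusted p = 0.0312).

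From GD8:15 to GD9:12, Tkt fell by 2.78 ± 0.64 in controls (adjusted p = 0.0121), while the arsenic difference of -1.63 ± 0.60 did not pass (adjusted p = 0.0760). These calls were less firm than those of Ldha: leaving out 1 array at a time, the control fall from GD9:00 ran from -2.99 to -1.97 with adjusted p between 0.00237 and 0.111, and the arsenic fall from -2.73 to -2.33 with adjusted p between 0.00605 and 0.136. The arsenic difference between GD8:15 and GD9:12 passed in 5 alternative settings, among them without control replicate 2 of GD9:00 (adjusted p = 0.0219) and without arsenic replicate 3 of GD8:15 (adjusted p = 0.0469), and turned to 0.48 with the title code as a block (adjusted p = 0.98). With only the compared groups in the model the control fall from GD9:00 did not pass (adjusted p = 0.114), and neither did the arsenic fall with the authors' scaling (-1.42, adjusted p = 0.074) or median centring (-1.68, adjusted p = 0.108). The control fall from GD8:15 was -2.47 without control replicate 1 of GD9:12 (adjusted p = 0.0634).

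**Figure D2:**
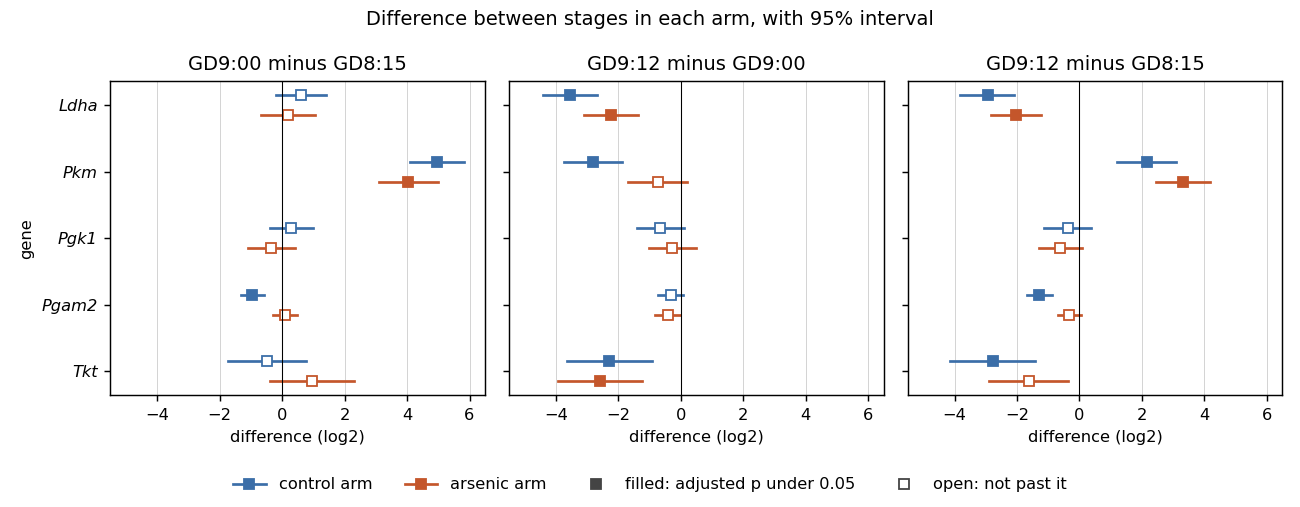
Difference between harvest stages (log2) of each probe in control and arsenic embryos, with 95% intervals from the model; filled squares passed an adjusted p of 0.05. Ldha and Tkt fall from GD9:00 to GD9:12 in both arms, and Pkm rises from GD8:15 to GD9:00 in both.

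Counted over the 5 genes, stage differences passed for 2 (Pkm, Pgam2) in controls from GD8:15 to GD9:00, where 15% of all tested probes passed. In controls from GD9:00 to GD9:12, 3 passed (Pkm, Ldha, Tkt) against 11.3% of probes, and from GD8:15 to GD9:12, 4 passed against 7.71%. In arsenic embryos, 1 gene (Pkm) passed in the first interval, where 4.21% of probes did. In the second interval 2 passed (Ldha, Tkt) against 3.88% of probes, and over the whole span 2 passed (Ldha, Pkm) against 13.8%. With 5 genes these counts are descriptions only.

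The stage comparisons that include GD8:15 leaned on how the title codes were treated. Control replicate 3 was the only array of GD8:15 whose code began like that of any later array. With the first part of the code as a block, each difference from GD8:15 therefore rested on that 1 array, in both arms. A call from GD8:15 kept or lost in that fit cannot tell stage from code. In it, 35 probes passed in controls from GD8:15 to GD9:00, in place of 1174. The rise of Pkm in controls was the 1 difference from GD8:15 among the 5 genes that still passed. Pkm otherwise stood at 4.32 and 3.59 in arsenic embryos (adjusted p = 0.108 and 0.12, limma) and at 2.8 in controls at GD9:12 (adjusted p = 0.0957). Ldha at GD9:12 was -3.05 and -2.24 against GD8:15 (adjusted p = 0.0507 and 0.311), Pgam2 -1.03 and -1.37 in controls (adjusted p = 0.195 and 0.0779), and Tkt -1.10 in controls (adjusted p = 0.788). Between GD9:00 and GD9:12, the calls of Ldha in both arms, Pkm in controls and Tkt in arsenic embryos passed, and the control fall of Tkt was -1.97 (adjusted p = 0.0938). What the codes stand for is not given in the sources used here.

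Cell markers also moved with the stage. In control embryos Actc1 fell by 2.76 ± 0.57 (adjusted p = 0.00567, limma) and Myl7, an atrial myosin light chain, fell by 4.35 ± 0.56 (adjusted p = 0.000164) from GD8:15 to GD9:12, and 5 of the 16 tested heart and muscle markers fell while none rose, where 7.71% of all tested probes passed in either direction. The mean log2 level of these 16 markers ran from 8.552 to 8.718 over the control arrays of GD8:15 and from 7.845 to 7.985 over those of GD9:12. Of 12 tested neural progenitor markers, 4 rose over the same span, Zic1 by 3.00 ± 0.25 (adjusted p = 3.42e-06), Sox11 by 2.53 ± 0.42 (adjusted p = 0.00142), En2 by 1.85 ± 0.35 and Fabp7 by 1.37 ± 0.29. Sox2, a stem cell factor, fell by 1.13 ± 0.33 (adjusted p = 0.0437, and up to 0.164 when 1 array was left out), and 4 of the 12 lay below 0. With the title code as a block En2, Fabp7 and Sox2 did not pass (adjusted p = 0.146, 0.505 and 0.465). Of 5 tested blood markers none passed over this span, with Hba-a1, a globin of red cells, at 2.30 ± 0.88 (adjusted p = 0.129, limma). From GD9:00 to GD9:12, 3 of the 5 rose, where 11.3% of all tested probes passed. Hba-a1 rose by 4.15 ± 0.88 there (adjusted p = 0.00593, limma), and Gata1 and Alas2 did not pass. In tissue RNA a change in the share of a cell type and a change per cell cannot be told apart, and the part of these shifts in the falls of Ldha, Tkt and Pgam2 was not tested.

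Arsenate was compared with water at each stage. None of the 5 genes passed at any stage, and neither did any of the 7833 probes (0% at GD8:15, GD9:00, GD9:12 and averaged over the 3 stages). Without adjustment, limma gave p under 0.05 for 571, 985 and 100 probes at the 3 stages and for 448 on average. With weighted arrays 4, 110 and 1 probes passed at the 3 stages and 13 on average. Of the 5 genes, the unadjusted p was under 0.05 for 1 at GD8:15, 2 at GD9:00, 1 at GD9:12 and 1 on average. The exact permutation test within a stage can give no two-sided p below 0.0286 with 4 against 4 arrays and 0.0571 with 4 against 3.

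At GD8:15, 3 h after the second injection, Pgam2 was lower under arsenate by 0.95 ± 0.18 (95% interval -1.32 to -0.58), 1.93-fold as measured. The unadjusted p was 3.93e-05 and the adjusted p 0.0733 (limma), with an exact two-sided permutation p of 0.0286. All 4 arsenic arrays lay below all 4 controls. The difference passed in 4 alternative settings and did not pass in the other 29. It passed with trended and robust variance estimates (adjusted p = 0.0175, limma). It also passed with stretches of low signal found among brighter probes left out (adjusted p = 0.0207), a setting chosen after seeing the data. Without control replicate 2 or 4 of GD9:00, which are outside this comparison, the adjusted p was 0.0434 and 0.00461. The adjusted p reached 0.265 with 1 array left out and 0.681 among the other settings (limma). Under the authors' scaling the difference was -0.61. It was not seen later: the difference was 0.10 ± 0.19 at GD9:00 and 0.00 ± 0.19 at GD9:12, where the probe was near the bottom of the scale.

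Muscle markers and sex markers moved with the arms at GD8:15. The arsenic difference was -1.575 ± 0.526 for Actc1 and -1.82 ± 0.52 for Myl7, neither past the threshold (adjusted p = 0.518 and 0.399, limma), and 13 of the 16 tested heart and muscle markers were lower. The mean level of the 16 ran from 8.552 to 8.718 over the control arrays and from 8.045 to 8.516 over the arsenic arrays, without overlap. Xist, expressed from the inactive X of female cells, read 7.02 to 7.10 on the 4 control arrays and 7.86 to 9.06 on the 4 arsenic arrays, and the Y-linked Eif2s3y read 7.66 to 7.79 and 7.11 to 7.30; the other Y-linked probes, Kdm5d and Uty, differed by -0.11 ± 0.48 and -0.13 ± 0.12. At GD8:15 the arm and the levels of Xist and Eif2s3y cannot be told apart, and the part of either marker group in the Pgam2 difference was not tested.

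The other genes differed less at GD8:15. Pgk1, which lies on the X chromosome, was 0.51 ± 0.33 higher under arsenate (adjusted p = 0.866, limma), and arsenic replicate 4, at 9.17, was its highest reading. Without that array its difference was 0.31. Ldha was lower by 0.54 ± 0.38, Tkt by 0.74 ± 0.60 and Pkm by 0.15 ± 0.41, with overlapping arrays in each case. Single arrays moved these values. Ldha was -0.332 when arsenic replicate 3 was dropped and -0.844 when arsenic replicate 4 was. Tkt was -0.301 when control replicate 4 was dropped and -1.19 when control replicate 3 was, and Pkm was -0.0062 in the absence of control replicate 1. Hmox1, the heme oxygenase induced by arsenic in many cells, was 1.78 ± 0.35 higher in the same comparison (adjusted p = 0.0928); it passed without arsenic replicate 3 of GD8:15 (adjusted p = 0.0068) or arsenic replicate 2 of GD9:00 (adjusted p = 0.0072).

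At GD9:00, Ldha and Pkm were both lower under arsenate. All 3 arsenic arrays of Ldha lay below all 4 controls, and the difference was -0.96 ± 0.41, a 1.95-fold difference (adjusted p = 0.363, limma; exact permutation p = 0.0571, the smallest possible). Pkm differed by -1.06 ± 0.45 (adjusted p = 0.357), and 1 of the 3 arsenic arrays reached the control range. Arsenic replicate 3 gave the lowest reading of both genes, and without it the differences were -0.47 and -0.51. Tkt was 0.70 ± 0.64 higher and Pgk1 0.13 ± 0.36 lower; the Tkt value rested on the low control replicate 2, without which it was -0.00139.

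Xist again ran with the arm at this stage, at 9.77 to 10.35 on the arsenic arrays and at 7.10 to 8.71 on the controls, a difference of 2.53 ± 0.72 (adjusted p = 0.245, limma). The Y-linked genes went in different directions there, none past the threshold: Eif2s3y differed by -0.41 ± 0.18 (0.216 with the authors' scaling), Kdm5d by 0.91 ± 0.52 and Uty by 0.30 ± 0.13. The heart and muscle markers lay the other way from GD8:15, with 15 of 16 higher under arsenate. The part of either marker group in the Ldha and Pkm values was not tested.

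At GD9:12, the direction for Pkm was the opposite: arsenic embryos were higher by 1.01 ± 0.45 (95% interval 0.07 to 1.95; unadjusted p = 0.0367, adjusted p = 1, limma), with overlapping arrays. Ldha, Tkt and Pgk1 were higher by 0.36 ± 0.41, 0.42 ± 0.64 and 0.26 ± 0.36, none past the threshold. Without control replicate 1, Ldha was 0.126 and Tkt 0.0993, and without arsenic replicate 2 Pgk1 was 0.163. Xist was high on 1 control array, at 11.34, and between 6.88 and 7.15 on the other 6.

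The change of the arsenic difference between stages was tested directly. No probe passed (0% of 7833; 506 at an unadjusted p under 0.05, limma F test). The lowest p among the 5 genes belonged to Pgam2 (unadjusted p = 0.00105, adjusted p = 0.692) and Pkm (unadjusted p = 0.0144, adjusted p = 0.705); for Pgam2 the adjusted p was 0.0259 without control replicate 4 of GD9:00. Averaged over the 3 stages, the arsenic difference was -0.38 ± 0.23 for Ldha, -0.28 ± 0.11 for Pgam2, -0.07 ± 0.25 for Pkm, 0.13 ± 0.36 for Tkt and 0.22 ± 0.20 for Pgk1, with adjusted p from 0.865 to 0.971.

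**Figure D3:**
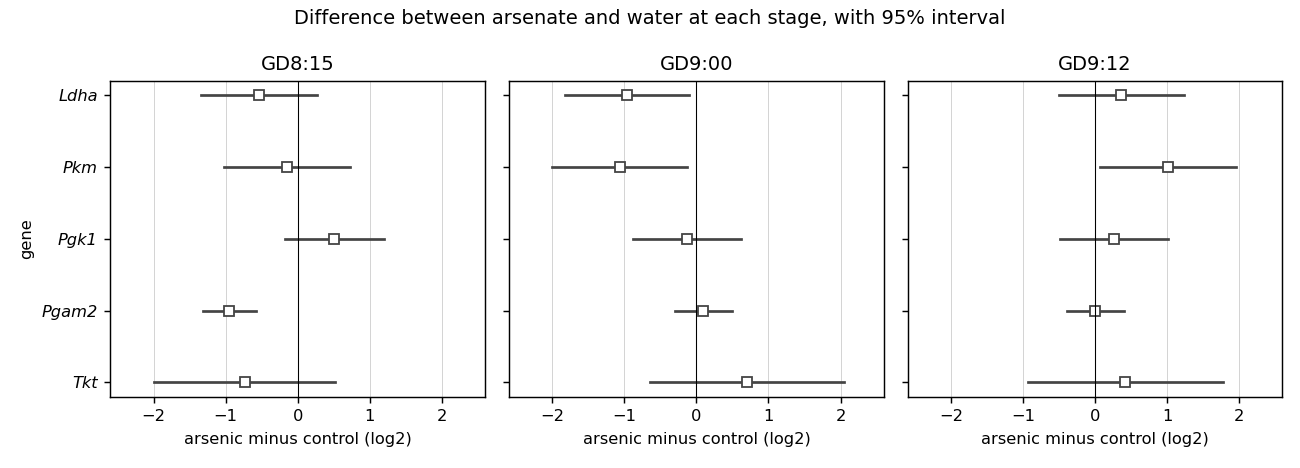
Arsenic minus control difference (log2) of each probe at the 3 harvest stages, with 95% intervals from the model; open squares did not pass an adjusted p of 0.05. The intervals of Pgam2 at GD8:15 (-1.32 to -0.58), of Ldha and Pkm at GD9:00 and of Pkm at GD9:12 leave out 0, and no adjusted p passed.

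Outside the 5, calls in glycolysis are given beside the share over all tested probes. Of 31 listed glycolysis genes, 24 were on the array and 20 were tested, 4 of them described above. From GD8:15 to GD9:00 in controls, 2 of the other 16 rose, where 15% of all tested probes passed in either direction: Bpgm, which makes the haemoglobin regulator 2,3-bisphosphoglycerate, by 0.55 ± 0.09 (adjusted p = 0.000808, limma) and Tpi1, triosephosphate isomerase, by 0.50 ± 0.10 (adjusted p = 0.00351). The median of all 20 was 0.24 against -0.02 over all tested probes.

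From GD9:00 to GD9:12 in controls, 3 of the other 16 fell, where 11.3% of all tested probes passed: Hk2, the hexokinase that starts the pathway, by 1.80 ± 0.45 (adjusted p = 0.0162, limma), Pfkl, a subunit of the rate-setting phosphofructokinase, by 1.12 ± 0.27 (adjusted p = 0.0112), and Bpgm by 0.36 ± 0.10 (adjusted p = 0.0244). Counting Ldha and Pkm, 5 of the 20 passed, all downward, and 16 of the 20 differences lay below 0, where 54.5% of all tested probes lay above it. The median was -0.60 for the 20 and -0.466 for the 16, against 0.03 over all tested probes. In arsenic embryos 1 of the 20 fell (Ldha), where 3.88% of all tested probes passed. There 18 of the 20 lay below 0, where 46.9% of all tested probes lay above it, and the median was -0.345 against -0.02.

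Keeping the authors' scaling turned the list's median for GD9:00 to GD9:12 to 0.125 in controls and 0.24 in arsenic embryos, and put the median of all tested probes at 0.785 and 0.33; the list stayed below the other probes on both scales. Bpgm was 0.29 higher under that scaling. With 1 array left out, the adjusted p reached 0.122 for Bpgm and 0.0623 for Hk2.

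Over the whole span, Eno3, the muscle enolase, fell by 1.45 ± 0.31 in controls (adjusted p = 0.00632, limma) and by 0.90 ± 0.28 in arsenic embryos (adjusted p = 0.0393, and up to 0.118 when 1 array was left out). It was the 1 glycolysis gene outside the 5 that fell between GD8:15 and GD9:12 in both arms. Of all tested probes, 7.71% passed over that span in controls and 13.8% in arsenic embryos. Eno3 stood beside the muscle form Pgam2, which fell in controls, and beside the muscle markers given above.

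**Figure D4:**
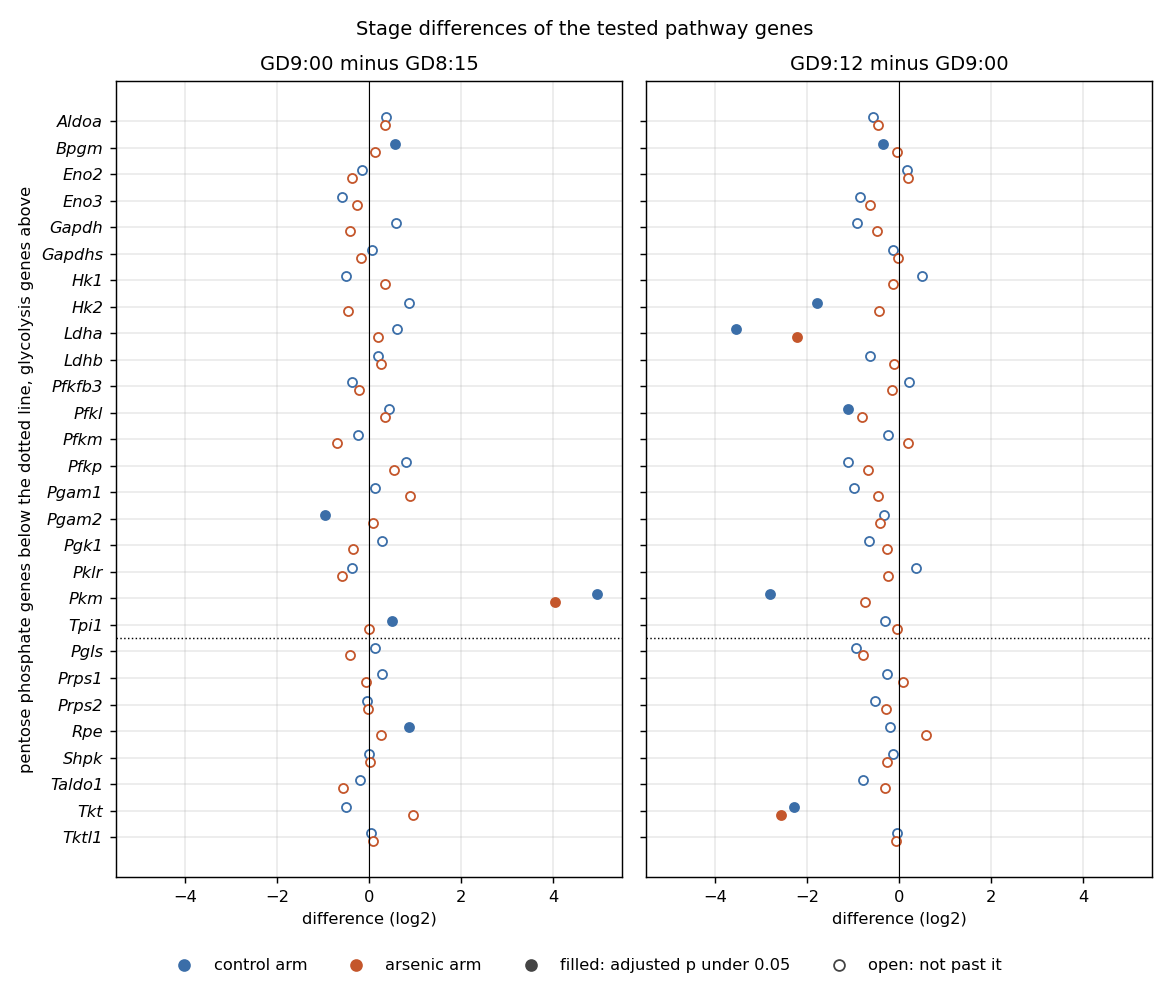
Stage differences (log2) of the 20 tested glycolysis genes and the 8 tested pentose phosphate genes in control and arsenic embryos; filled points passed an adjusted p of 0.05. In the right panel 16 of 20 control points and 18 of 20 arsenic points of the glycolysis genes lie below 0.

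The pentose phosphate pathway had 13 listed genes, 10 on the array and 8 tested. Of all tested probes, 15% passed in controls from GD8:15 to GD9:00. From GD8:15 to GD9:12, 7.71% passed in controls and 13.8% in arsenic embryos. Beside Tkt, Rpe, which interconverts pentose phosphates, rose in controls from GD8:15 to GD9:00 by 0.86 ± 0.18 (adjusted p = 0.00423, limma) and stood 0.67 ± 0.19 higher at GD9:12 than at GD8:15 (adjusted p = 0.0363, and up to 0.147 when 1 array was left out). In arsenic embryos it rose by 0.85 ± 0.18 over the whole span (adjusted p = 0.00372), while Pgls, the lactonase of the oxidative branch, fell by 1.22 ± 0.30 (adjusted p = 0.0113). All 8 genes lay below 0 in controls from GD9:00 to GD9:12, where 54.5% of all tested probes lay above it. Their median was -0.41, and only Tkt passed, where 11.3% of all tested probes did. With the authors' scaling this median was 0.32, against 0.785 over all tested probes.

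Genes that carry glucose, lactate and pyruvate showed no common direction. Of 15 tested, Slc16a1, a lactate and pyruvate transporter, rose by 0.87 ± 0.21 (adjusted p = 0.0117, limma) and Gpd2, of the glycerol phosphate shuttle, by 0.56 ± 0.15 (adjusted p = 0.0188) in controls from GD8:15 to GD9:00. Mdh1, a cytosolic malate dehydrogenase, fell by 1.20 ± 0.33 from GD9:00 to GD9:12 (adjusted p = 0.0241). Slc16a3, a lactate exporter, fell by 1.40 ± 0.40 from GD8:15 to GD9:12 (adjusted p = 0.0367). In controls 2, 1 and 1 of the 15 passed from GD8:15 to GD9:00, GD9:00 to GD9:12 and GD8:15 to GD9:12. Of all tested probes, 15%, 11.3% and 7.71% passed there. None of the 15 passed in arsenic embryos, where 4.21%, 3.88% and 13.8% of all tested probes did. Dropping 1 array took the adjusted p as high as 0.0693 for Gpd2, 0.0825 for Mdh1 and 0.217 for Slc16a3.

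Of 16 tested targets and regulators of HIF-1 outside glycolysis, 4 rose from GD8:15 to GD9:00 in each arm, 1 fell in controls and the others did not pass; 15% of all tested probes passed in controls and 4.21% in arsenic embryos. In controls Bnip3l, a mitophagy receptor, rose by 1.57 ± 0.25 (adjusted p = 0.000655, limma), Ddit4, an inhibitor of mTOR signalling, by 1.11 ± 0.20 (adjusted p = 0.00191), Egln1, the oxygen-sensing prolyl hydroxylase, by 0.71 ± 0.12 (adjusted p = 0.000786), and P4ha1, a collagen prolyl hydroxylase, by 0.71 ± 0.15 (adjusted p = 0.00425). Arnt, the partner subunit of HIF-1, fell by 0.77 ± 0.18 (adjusted p = 0.00831). The median of the 16 was 0.36 against -0.02 over all tested probes. Of the 16, 5 lay below 0, where 47.6% of all tested probes lay above it.

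In arsenic embryos the 4 that rose in the same interval were also Bnip3l (1.08 ± 0.27), Ddit4 (1.80 ± 0.22), Egln1 (0.67 ± 0.12) and P4ha1 (0.64 ± 0.16), with adjusted p of 0.0283, 9.83e-05, 0.00542 and 0.0247 (limma). Of the 16, 14 lay above 0, as did 47.3% of all tested probes, and the median was 0.33. From GD9:00 to GD9:12, 11.3% of all tested probes passed in controls and 3.88% in arsenic embryos. Of the 16, 4 fell in controls, Bnip3 by 2.61 ± 0.51 (adjusted p = 0.00325), Bnip3l by 0.88 ± 0.27, P4ha1 by 0.73 ± 0.16 and Egln1 by 0.56 ± 0.12 (adjusted p = 0.0429, 0.00622 and 0.00821). With the authors' scaling the last 3 were 0.01, 0.25 and 0.08. In arsenic embryos Ddit4 fell by 0.99 ± 0.22 (adjusted p = 0.0173) and Egln1 by 0.60 ± 0.12 (adjusted p = 0.0126), and Ddit4 stayed 0.81 ± 0.20 above its GD8:15 level (adjusted p = 0.0128). Leaving out 1 array, the adjusted p of the arsenic rises reached 0.174 for Bnip3l and 0.128 for P4ha1, and that of the later falls 0.17 for Bnip3l and 0.0533 for Egln1 in controls and 0.0995 for Ddit4 and 0.0779 for Egln1 in arsenic embryos. From GD8:15 to GD9:00 Ldha differed by 0.61 ± 0.38 in controls and by 0.19 ± 0.41 in arsenic embryos. Neither difference passed (adjusted p = 0.290 and 0.857, limma), and any part of HIF-1 in these values was not tested.

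None of the lists held a gene that passed for arsenate against water. At GD8:15 the lowest p-values outside the 5 belonged to Gapdh of glycolysis (0.73 ± 0.34; 0.275 without control replicate 1) and Pgls of the pentose phosphate pathway (0.35 ± 0.30), with Mdh1 at -0.78 ± 0.31 and Slc2a4, a glucose transporter, at 0.28 ± 0.17. Among HIF-1 genes they belonged to Vhl (0.23 ± 0.13) and Bnip3 (-0.79 ± 0.47), and among 13 tested targets of the oxidative stress factor NRF2 to Hmox1 and Gclm (0.44 ± 0.19).

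At GD9:00 they were Bpgm (-0.36 ± 0.10) and Hk1 (0.69 ± 0.22), Rpe (-0.64 ± 0.19) and Taldo1 (-0.51 ± 0.37), Gpd2 (-0.45 ± 0.16) and Pcx (0.83 ± 0.34), Arnt (0.83 ± 0.19) and Ddit4 (0.70 ± 0.22), and Hmox1 (1.24 ± 0.38) and Nqo1 (0.20 ± 0.09). With the authors' scaling Bpgm was 0.20. Leaving out 1 array, the adjusted p fell to 0.0204 for Hk1 (without control replicate 2) and to 0.0469 for Rpe and 0.0396 for Hmox1 (both without arsenic replicate 2). Without arsenic replicate 3, Pcx was 0.42 and Taldo1 -0.23. At GD9:12 they were Eno3 (0.29 ± 0.31), Rpe (0.14 ± 0.19), Mdh1 (0.91 ± 0.33) and Slc2a3 (0.38 ± 0.26), Epas1 (0.15 ± 0.09) and Ddit4 (0.32 ± 0.22), and Gsr (0.29 ± 0.14) and Gstm1 (-0.56 ± 0.39). The median arsenic difference of the 20 glycolysis genes was 0.04, -0.18 and 0.09 at the 3 stages, against 0.00, 0.01 and -0.01 over all tested probes.

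Tkt is also an NRF2 target, and 12 other targets were tested. In controls 1 of them passed from GD8:15 to GD9:00, where 15% of all tested probes did. In arsenic embryos 1 passed from GD9:00 to GD9:12 and 2 from GD8:15 to GD9:12, against 3.88% and 13.8% of all tested probes. Gstm1, a glutathione transferase, fell by 1.52 ± 0.36 in controls from GD8:15 to GD9:00 (adjusted p = 0.0106, limma). In arsenic embryos Hmox1 fell by 1.38 ± 0.38 from GD9:00 to GD9:12 (adjusted p = 0.0465) and fell by 2.10 ± 0.35 from GD8:15 (adjusted p = 0.000725), and Slc7a11, a cystine carrier, fell by 0.24 ± 0.08 over the whole span (adjusted p = 0.0446). The adjusted p rose, with 1 array left out, to as much as 0.227 for the first Hmox1 fall and 0.116 for Slc7a11.

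The 5 genes did not share 1 profile. Over the 22 arrays the correlation was highest between Ldha and Tkt (r = 0.752) and lowest between Pkm and Pgam2 (r = -0.457). Within groups, where the group means are removed, Ldha and Tkt correlated at 0.219 and Ldha and Pkm at 0.482. Arrays share stage, scaling and amplification, so these values describe profiles and carry no test.

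The 3 probes most like Ldha were Pomp (r = 0.936), a proteasome assembly factor, Rps18 (r = 0.920), a ribosomal protein, and Clpp (r = 0.915), a mitochondrial protease, with r of 0.627, 0.654 and 0.407 within groups. Pkm was most like Trap1 (r = 0.976), a mitochondrial chaperone, Bop1 (r = 0.945), a ribosome biogenesis factor, and Skp2 (r = 0.945), a cell cycle ubiquitin ligase subunit, with 0.820, 0.668 and 0.525 within groups. Trap1 read 7.13 to 7.50 on the 8 arrays of GD8:15 and 8.47 to 9.71 at GD9:00, on the 6 arrays there that measured it. For Pgk1 the closest were Cldn7 (r = 0.784), P4hb (r = 0.783) and Tubb2b (r = 0.778).

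Tkt was closest to Zmynd8 (r = 0.861), Tmem160 (r = 0.848) and Cdc42se1 (r = 0.846); within groups r was 0.578, 0.881 and 0.572. Pgam2 was closest to Fbxo32 (r = 0.842), a muscle ubiquitin ligase, Hspb2 (r = 0.834), a small heat shock protein of muscle, and Actc1 (r = 0.824), with 0.498, 0.514 and 0.505 within groups. All 3 are known from heart and skeletal muscle. Fbxo32 and Hspb2 were dim, at no more than 1.2 and 1.6 times the array median.

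**Figure D5:**
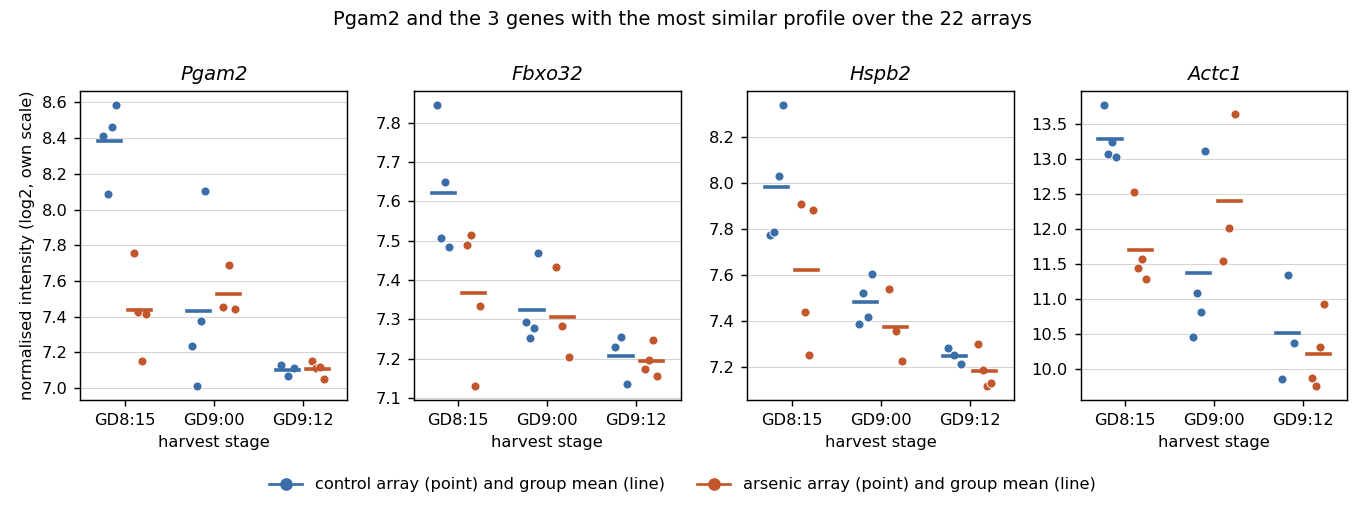
Normalised intensity (log2, each panel on its own scale) of Pgam2 and of the 3 probes whose profile over the 22 arrays was most like it; points are arrays and lines are group means. Actc1 reads 13.04 to 13.77 on the control arrays of GD8:15 and 11.29 to 12.53 on the arsenic arrays, and like Pgam2 the groups do not overlap there. The groups of the dim Fbxo32 (7.49 to 7.84 and 7.13 to 7.51) and Hspb2 (7.78 to 8.34 and 7.25 to 7.91) do overlap there.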

How the data were processed

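The authors deposited 1 table of linear intensity values for 22 CodeLink arrays, rounded to whole numbers, with array means near 600, 500 and 1000 at GD8:15, GD9:00 and GD9:12; the background correction and scaling are not given in the sources used here. Values of 1 or 2 (838 in all; the next lowest was 56) were taken as placeholders and set to missing. Log2 intensity was quantile normalised, a probe was kept if every group had 2 or more measured arrays and it was not among the dimmest 25% by mean (7833 of 10500), and all 22 arrays entered 1 limma model of 6 group means (R 4.3.3, limma 3.58.1, 16 residual degrees of freedom) with empirical Bayes and Benjamini-Hochberg adjustment over all tested probes. The script was tested on simulated data. Symbols came from the platform annotation: 9378 probes had 1 symbol, 8 had several and 1114 none. A list gene was represented by its tested probe of highest mean. The 5 genes, the gene lists and the tests were chosen with earlier results of these data known. Named were the 5 genes, the list genes that passed with the largest difference, up to 4 in each direction, otherwise the 2 of lowest p in a list, the 3 probes most like each gene, and marker genes beside results. Replicate numbers follow the order of the samples and pair nothing. The number of arrays, 3 or 4 a group, limits the precision.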

Additional observations from a re-analysis of the deposited data

Results flagged for a closer look

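Tkt on control replicate 2 of GD9:00 read 9.005 (log2), far below the other 3 control arrays of that stage, the nearest of which read 11.57. Its gap took up more of the group's range than the 95% limit of Dixon's test for 4 samples allows. The reading lay in a stretch of low signal found among brighter probes, a search chosen after seeing the data. It did not lie in one found by the planned search, and the part of such a stretch in the reading was not tested. Chance alone gives such a gap in about 1 group in 20, and 20 groups of 4 arrays were looked at over the 5 genes.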

How the results depend on the processing

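Of the 352 recomputed counts of probes that passed, 281 stayed within 1.5 times the reported count and 71 did not. Of 4405 recomputed values of single genes, lists and p-values, 4084 kept direction and side of the threshold, 218 lost the threshold, 27 gained it, 24 medians moved and 52 changed sign. The cause of each change was not tested. The counts below are given in the order control GD8:15 to GD9:00 (1174 reported), GD8:15 to GD9:12 (604) and GD9:00 to GD9:12 (883), then the same for arsenic embryos (330, 1082 and 304).

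With the authors' scaling kept, the control counts were 2743, 1421 and 5609 and the arsenic counts 151 and 1816 (first and last), and 1 probe passed for arsenate at GD9:00 and 2 on average. Their split was 168 higher and 2575 lower, 1323 and 98, and 5506 and 103 in controls, against 639 and 535, 295 and 309, and 300 and 583 as reported. In arsenic embryos it was 19 and 132, 1256 and 134, and 1805 and 11, against 188 and 142, 566 and 516, and 149 and 155. That scaling set the median of all tested probes to -0.492, 0.27 and 0.785 in controls, to -0.256, 0.0549 and 0.33 in arsenic embryos, and to 0.21, 0.433 and 0.0197 for arsenate at the 3 stages. With median centring the counts were 974 and 1364 (controls, second and last) and 62 and 765 (arsenic, first and last), with 1 probe for arsenate at GD9:00; the split was 617 and 408, 726 and 248, and 745 and 619 in controls and 33 and 29, 1157 and 434, and 665 and 100 in arsenic embryos. With array weights the counts were 1973, 2035 and 1802, then 887, 1667 and 1435, and 4, 110 and 1 probes passed for arsenate at the 3 stages and 13 on average. With the title code as a block they were 35, 47 and 520, then 6 and 7, and 2 for arsenate at GD9:00. With only the compared groups in the model they were 615 (controls, first), 47 and 692 (arsenic, first and second). At GD8:15, 3 probes passed for arsenate with placeholders kept, 5 with trended and robust variances, and 5 with low stretches among brighter probes left out, which also gave 488 for the last arsenic interval.

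Leaving out 1 array gave 670 to 1394, 290 to 726 and 404 to 1043 in controls, and 132 to 406, 694 to 1201 and 132 to 360 in arsenic embryos. For arsenate it gave 0 to 5, 0 to 35 and 0 to 1 probes at the 3 stages, 0 to 5 on average and 0 to 4 for the change between stages. The 35 came without control replicate 2 of GD9:00. The lowest counts came without control replicate 4 of GD8:15, control replicates 2 and 3 of GD9:12, arsenic replicate 1 of GD9:00 (first and last arsenic interval) and arsenic replicate 2 of GD9:12.

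Some sign changes concerned differences that had passed: the rise of Tpi1 and the falls of Bnip3l, Egln1, P4ha1 and Bpgm in controls. With the authors' scaling, Ldha and Pgam2 were -0.0693 and -0.191 (arsenic, GD8:15 to GD9:00), Pgam2 0.0396 (average arsenic difference) and 0.341 (controls, GD9:00 to GD9:12), and Pgk1 0.243 and 0.0805 (GD9:00 to GD9:12, arsenic and control), 0.189 (arsenate at GD9:00) and -0.202 (controls, GD8:15 to GD9:00). Pkm was 0.566 (arsenic, GD9:00 to GD9:12) and 0.122 (arsenate at GD8:15). Tpi1 was -0.00539 (controls, GD8:15 to GD9:00). From GD9:00 to GD9:12 in controls, Bnip3l was 0.0131, Egln1 0.0764, P4ha1 0.246 and Bpgm 0.287, and for arsenate Bpgm was 0.201 and Eif2s3y 0.216 at GD9:00 and Uty 0.122 at GD8:15. With median centring Pkm was 0.307 (arsenic, GD9:00 to GD9:12) and Tkt -0.0574 and -0.188 (arsenate at GD9:00 and on average). With array weights Pgk1 was 0.0214 (arsenic, GD8:15 to GD9:00) and 0.0943 (arsenate at GD9:00), and Pkm 0.182 on average. With low stretches among brighter probes left out, a setting chosen after seeing the data, Tkt was -0.0417 on average and 0.136 (controls, GD8:15 to GD9:00). With the title code as a block Ldha and Pgam2 were -0.0112 and -0.0376 (arsenic, GD8:15 to GD9:00), Tkt 0.481 (arsenic, GD8:15 to GD9:12), 0.869 (controls, GD8:15 to GD9:00) and -0.228 on average, and Xist 0.125 at GD9:12, which it also was on the arrays of the shared code alone.

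Leaving out 1 array, the arsenic interval from GD8:15 to GD9:00 ran from -0.117 to 0.682 for Ldha, from -0.00397 to 0.197 for Pgam2 and from -0.613 to 0.00353 for Pgk1, and the control interval from -0.947 to 0.212 for Tkt. The difference for arsenate ran at GD8:15 from -0.407 to 0.174 for Kdm5d, and at GD9:00 from -0.0426 to 0.321 for Pgam2, from -0.472 to 0.222 for Pgk1 and from -0.00139 to 1.02 for Tkt. At GD9:12 it ran from -0.0114 to 0.0245 for Pgam2 and from -2.1 to 0.125 for Xist, and on average from -0.177 to 0.117 for Pkm and from -0.108 to 0.272 for Tkt.

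No paired analysis was possible because the labels give no replicate numbers that tie control to arsenic arrays. Signals near the array median, as for Pgk1, Pgam2 and early Pkm, limit what a difference can show.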
